A study of Mus musculus with 3 samples.

Results

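Mt1, Mt2 and Mt3, the 3 metallothionein genes with rows in the count tables, were followed through the cell classes of mouse retina in 3 single-cell libraries. They are 3 of 24071 genes measured. They were chosen by name, with their differences between these libraries already known, so every ratio below is a description and no test is attached to it. Metallothioneins are small, cysteine-rich proteins that bind zinc and copper and take up reactive oxygen species. Mt1 and Mt2 are made by most tissues and are switched on together by zinc through the metal-sensing factor MTF1, by glucocorticoids and by cell stress, while Mt3 is made chiefly in the nervous system and responds little to metals. In the retina, metallothioneins are known as products of Müller glia, the radial glial cells that span the tissue.

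The libraries came from P26 retinas of 3 groups: Tspan12 KO mice treated with F4L5.13, untreated Tspan12 KO mice, and WT mice. TSPAN12 is a co-receptor through which Norrin signals to FZD4 and LRP5 in endothelial cells, and F4L5.13 is an antibody agonist of that receptor pair, injected intraperitoneally. The first injections, on days P6, P9 and P12, were of 10 mg/kg, and later injections of 4 mg/kg followed at intervals of 3 days. The strain field reads Tspan12tm1.2Hjug in all groups, WT included, and the labels do not give the number or sex of the animals behind a library. Anti-CD73 and Annexin V beads had removed part of the photoreceptors and dying cells, so class sizes describe the depleted suspension. Each group has 1 library, so a difference between libraries cannot be told apart from a difference between animals or dissociations, and all intervals are 95% intervals that cover counting error only.

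After filtering, 8215 treated KO, 9357 KO and 5785 WT barcodes remained, with median depths before filtering of 6588, 7351 and 14797 reads. Barcodes were clustered together and clusters were named from marker genes. The libraries shared 12 to 20 kept barcodes per pair. Tspan12 itself was still read in Müller glia, at 25.6 CPM (reads per 1e6 reads of the class) in the treated KO library, 29.6 CPM in the KO library and 44.1 CPM in the WT library. The sources used here do not say which exons the allele lacks, so these 3′ tags do not check the genotype labels.

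The 3 genes lie in a row on the plus strand of chromosome 8 in the mm10 build, each with 3 exons in its first annotated transcript (GENCODE vM21). Mt3 covers chr8:94152607-94154146, Mt2 covers chr8:94172664-94173568 and Mt1 covers chr8:94179082-94180327, with 18517 bases between Mt3 and Mt2 and 5513 bases between Mt2 and Mt1. The longest identical stretch is 20 bases between the first Mt1 and Mt2 transcripts, 27 bases between those of Mt1 and Mt3, and 20 bases between those of Mt2 and Mt3. Mt4 is not analysed here.

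In Müller glia Mt1 and Mt2 differed together between these libraries and Mt3 differed less. The 250 bases before each gene's RefSeq start (GRCm38.p6, the assembly of mm10) are therefore given 5′ to 3′ on the plus strand. They span chr8:94178839-94179088 for Mt1, chr8:94172368-94172617 for Mt2 and chr8:94152357-94152606 for Mt3. Capitals mark the core of the metal response element, which MTF1 binds, searched as TGCACNC and TGCGCNC on both strands with overlaps allowed.
Mt1: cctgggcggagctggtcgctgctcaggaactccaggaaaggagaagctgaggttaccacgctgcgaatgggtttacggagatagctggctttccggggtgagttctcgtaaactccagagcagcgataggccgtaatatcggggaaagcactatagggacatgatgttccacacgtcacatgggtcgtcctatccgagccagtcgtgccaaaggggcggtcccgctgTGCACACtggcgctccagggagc
Mt2: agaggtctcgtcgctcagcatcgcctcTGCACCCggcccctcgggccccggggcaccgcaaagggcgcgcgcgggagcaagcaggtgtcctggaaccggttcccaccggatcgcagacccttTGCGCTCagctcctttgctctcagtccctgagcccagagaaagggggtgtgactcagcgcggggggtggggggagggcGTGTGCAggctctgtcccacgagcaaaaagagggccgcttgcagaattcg
Mt3: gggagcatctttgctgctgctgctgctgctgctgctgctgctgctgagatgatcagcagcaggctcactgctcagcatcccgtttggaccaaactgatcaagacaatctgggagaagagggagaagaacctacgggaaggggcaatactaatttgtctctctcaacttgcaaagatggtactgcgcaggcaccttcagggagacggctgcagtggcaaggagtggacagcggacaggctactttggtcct
The Mt2 window held 3 matches, 1 of them on the minus strand, the Mt1 window held 1 and the Mt3 window held 0. Among 32851 RefSeq promoter windows of the same length, 21.4% held at least 1 match and 1.26% held 3 or more. The Mt1 window ends 123 and 153 bases before the starts of the other annotated Mt1 transcripts. The Mt2 window ends 47 and 243 bases before the annotated Mt2 starts, and the Mt3 window 140 bases before the later Mt3 starts. Sequence just ahead of those starts is outside the windows. The Mt1 window also held 1 match to the palindromic glucocorticoid response element, found in 0.387% of windows. The core of the antioxidant response element, TGACNNNGC, was matched 1 time in Mt2 and in 10.2% of all windows. The hypoxia response element cores ACGTG and GCGTG were matched 2 times in Mt1, 1 time in Mt2 and not in Mt3, against 38.6% of windows with a match, and the Mt2 match overlaps its minus-strand metal response element. A STAT site, TTCNNNGAA, was matched in none of the 3 windows and in 7.02% of all. A match is a string of letters and not a bound site.

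Müller glia held most of the metallothionein reads in each library and carried the highest or second-highest Mt1 level. The class had 1285 treated KO, 1358 KO and 1688 WT cells. All 14 Müller markers were read in it, but also in rods of each library, so that count does not set the class apart. Müller glia supplied 72.8% of all Mt1 reads of kept cells in the treated KO library, 74.5% in the KO library and 68.0% in the WT library. Mt1 stood at 3266 CPM (interval 3229 to 3302) in treated KO Müller glia, 8036 CPM (7987 to 8085) in KO Müller glia and 1877 CPM (1853 to 1902) in WT Müller glia. By reads, Mt1 ranked 26th of all genes in treated KO, 8th in KO and 43rd in WT Müller glia. Mt2 stood at 490.4 CPM, 1495 CPM and 264 CPM in the treated KO, KO and WT libraries. Mt3 stood at 318 CPM, 473 CPM and 265.5 CPM in the same order of libraries. The KO library was highest for all 3 genes, the WT library was lowest, and none of the intervals of a gene overlapped.

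The KO over WT ratio in Müller glia was 4.28 for Mt1 (4.22 to 4.34), 5.66 for Mt2 (5.45 to 5.88) and 1.78 for Mt3 (1.71 to 1.86). Within the 4 clusters with at least 20 cells in both libraries the Mt1 ratio ran between 2.01 and 4.48, as given below. Thus 2 of the 3 genes reached a ratio of 2, where 3.21% of 13836 measured genes did (a gene was measured with at least 30 molecule equivalents, reads divided by about 3, in the higher library). The genes were picked for such differences, so nothing is read from that background. In treated KO over KO Müller glia the ratios were 0.406 for Mt1 (0.401 to 0.412), 0.328 for Mt2 (0.318 to 0.339) and 0.673 for Mt3 (0.644 to 0.704), and 2 of the 3 genes were at or below 0.5, against 2.34% of 13384 measured genes. In treated KO over WT Müller glia the ratios were 1.74 for Mt1 (1.71 to 1.77), 1.86 for Mt2 (1.78 to 1.94) and 1.20 for Mt3 (1.14 to 1.26). None of the 3 reached 2 there, against 1.14% of measured genes. The KO and WT libraries each stand in 2 of these 3 comparisons, so the ratios are not independent of each other.

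**Figure D1:**
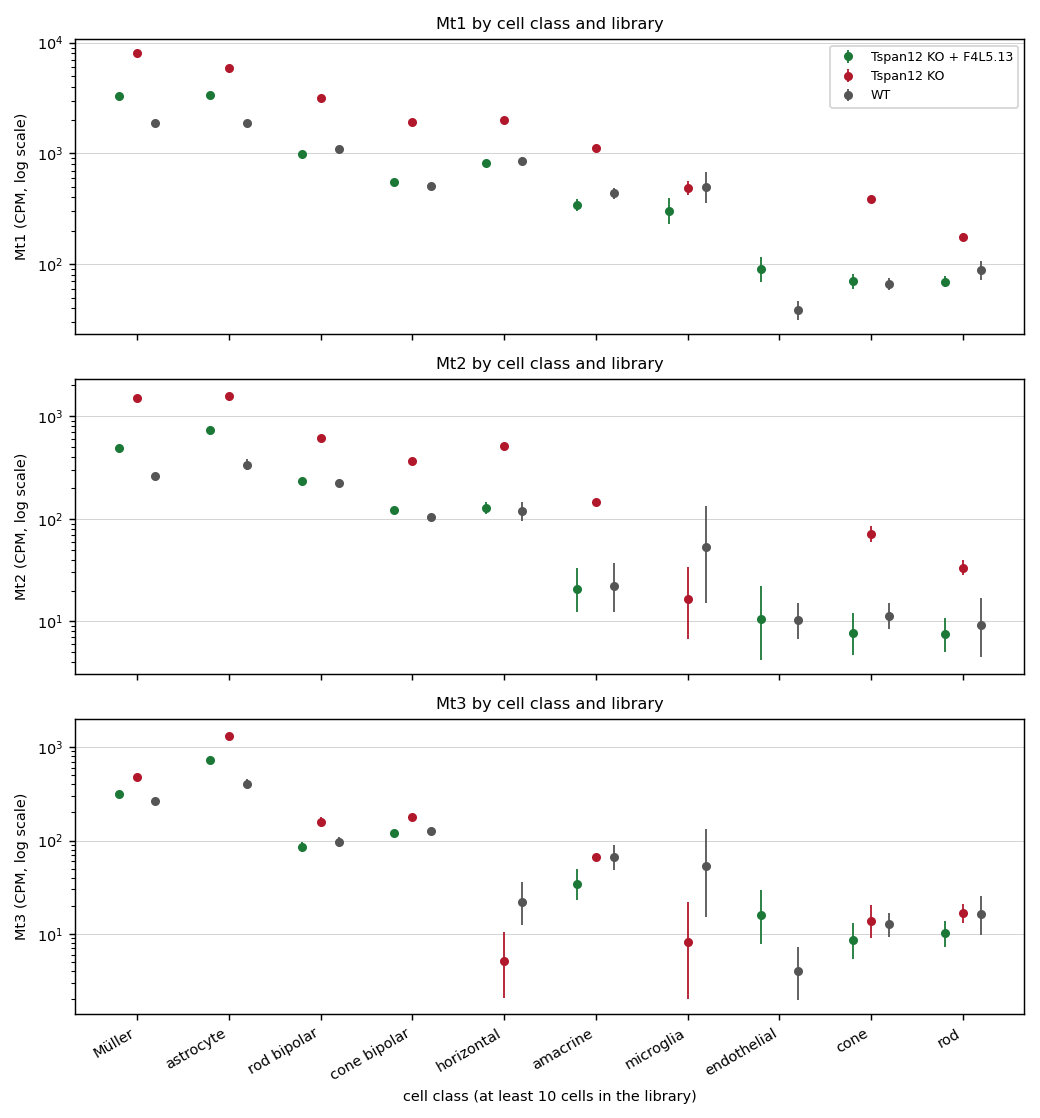
Mt1 (top), Mt2 (middle) and Mt3 (bottom) in CPM on a log scale by cell class, with treated KO (green, left), KO (red, middle) and WT (grey, right) in each class. Bars are exact Poisson 95% intervals and levels at or under 3 molecule equivalents are not drawn. In Müller glia Mt1 stands at 3266, 8036 and 1877 CPM, and in rods at 69.6, 176 and 88.7 CPM.

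Mt1 was not confined to glia. Rod bipolar cells, which carry the rod signal to the inner retina, held 986.5 CPM of Mt1 in the treated KO library (717 cells), 3183 CPM in the KO library (597 cells) and 1088 CPM in the WT library (697 cells). Cone bipolar cells held 556 CPM in the treated KO, 1901 CPM in the KO and 503 CPM in the WT library. Horizontal cells, lateral inhibitory neurons of the outer plexiform layer, held 811 CPM in 95 treated KO cells, 2002 CPM in 81 KO cells and 857 CPM in 40 WT cells. Amacrine cells, inhibitory interneurons of the inner retina, held 342 CPM in 137 treated KO cells, 1107 CPM in 1216 KO cells and 438 CPM in 119 WT cells. In each of these 4 neuron classes the KO library was highest, and the treated KO and WT libraries lay near each other.

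Across classes the order of Mt1 levels was alike in the 3 libraries. In the WT library astrocytes (1889 CPM, 52 cells) and Müller glia (1877 CPM) led with overlapping intervals. They were followed by rod bipolar and horizontal cells, and then by cone bipolar cells, microglia (498 CPM, 14 cells) and amacrine cells. Among the last 3, the microglial interval (354 to 680 CPM) covered the levels of the other 2. Photoreceptors and endothelial cells came last, with 66.2 CPM in cones, 88.7 CPM in rods and 38.4 CPM in 115 endothelial cells. In the treated KO library astrocytes (3396 CPM, 25 cells) and Müller glia also overlapped. In the KO library Müller glia stood above astrocytes (5878 CPM, 29 cells), and horizontal and cone bipolar cells overlapped. With under 50 cells in a library, astrocytes, microglia and endothelial cells are given by level only. Microglial Mt1 was 304 CPM in 34 treated KO cells and 489 CPM in 74 KO cells, with Müller markers given below. Only 2 endothelial cells were named in the KO library, against 40 treated KO cells with 90.6 CPM.

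Over the 6 classes with at least 50 cells in both libraries, the KO over WT ratio reached 2 in 5 classes for Mt1 and in 6 for Mt2. Besides Müller glia, the Mt1 ratios were 2.93 in rod bipolar cells (2.80 to 3.06), 3.78 in cone bipolar cells (3.66 to 3.90), 2.53 in amacrine cells (2.25 to 2.86), 5.82 in cones (5.05 to 6.73) and 1.99 in rods (1.61 to 2.48; 2.05 with the members left out of the clustering). The Mt2 ratios ran between 2.72 in rod bipolar cells and 6.54 in amacrine cells (3.91 to 11.85). The amacrine value rests on 45 reads in the WT library, and was 4.56 with classes taken per barcode from detected markers. Within the 3 amacrine clusters with at least 20 cells in both libraries it ran between 1.23 and 31.1, and 2 of them reached 2. The share of all measured genes at or above 2 was 1.74% in rod bipolar, 2.23% in cone bipolar, 8.8% in amacrine, 1.13% in cone and 25.7% in rod cells. In amacrine cells, of which the KO library held 1216 and the WT library 119, the median log2 ratio over all measured genes was 0.17. In rods, whose WT cells were deeper (14479 reads per cell, against 3116.5 in the KO library), that median was 0.49. Divided by the median ratio of genes with at least 10 CPM in both libraries, the rod Mt1 ratio was 1.64. Rods of the KO and WT libraries lay in different clusters. Cluster 0 held 3362 of 3826 KO rods and 55 of 213 WT rods, and cluster 16 held 52 KO and 156 WT rods. The Mt1 ratio was 1.25 within cluster 0 (0.711 to 2.45) and 12.9 within cluster 16 (10.0 to 16.8), so the rod ratio of 1.99 mixes clusters in unequal shares. The photoreceptor ratios rest on low levels and depended on how cells were chosen. With classes taken per barcode from detected markers the Mt2 ratio in rods was 1.35, against 3.64 from clusters. With the members left out of the clustering the Mt2 ratio in cones was 10.1, against 6.25.

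In the treated KO over KO comparison Mt1 and Mt2 lay at or below 0.5 in all 7 classes with enough cells. The Mt1 ratio was 0.310 in rod bipolar cells (0.296 to 0.324), 0.292 in cone bipolar cells (0.283 to 0.302), 0.309 in amacrine cells (0.274 to 0.348) and 0.405 in horizontal cells (0.380 to 0.431). In photoreceptors it was 0.183 in cones (0.154 to 0.216; 0.322 without the 1% of cones with most Mt1 reads and 0.317 with no doublets left out) and 0.394 in rods (0.343 to 0.453). Background shares at or below 0.5 were 1.62% in rod bipolar, 2.61% in cone bipolar, 8.01% in amacrine, 1.26% in horizontal, 1.51% in cone and 3.04% in rod cells.

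Set against WT, the treated KO library gave a higher Mt1 ratio in Müller glia than in bipolar or amacrine cells, each taken as a whole class. The ratio was 1.74 in Müller glia, while it was 0.907 in rod bipolar cells (0.859 to 0.957), 1.10 in cone bipolar cells (1.06 to 1.15) and 0.782 in amacrine cells (0.661 to 0.924). The Müller interval thus overlapped none of these 3. Within clusters with at least 20 cells in both libraries the ranges did overlap. The Mt1 ratio ran between 1.43 and 2.18 in 4 Müller glia clusters and between 1.02 and 2.79 in 9 cone bipolar clusters. In 3 amacrine clusters it ran between 0.541 and 1.13. Horizontal cells held 811 CPM in the treated KO library against 857 CPM in the WT library, and astrocytes held 3396 CPM against 1889 CPM. The Mt2 ratio was 1.86 in Müller glia, 1.03 in rod bipolar cells (0.915 to 1.15) and 1.17 in cone bipolar cells (1.08 to 1.28). In amacrine cells it was 0.947 (0.445 to 2.05), an interval that includes the Müller ratio. Photoreceptor clusters lay on both sides of the Müller ratio. The Mt1 ratio was 2.08 in the main cone cluster (1.47 to 2.95) and 1.02 in the other, and it was 3.40 in rod cluster 16 (2.58 to 4.51) and 0.366 in rod cluster 0 (0.201 to 0.730). With 1 library per group this difference between classes carries no replicate error and was not tested.

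**Figure D2:**
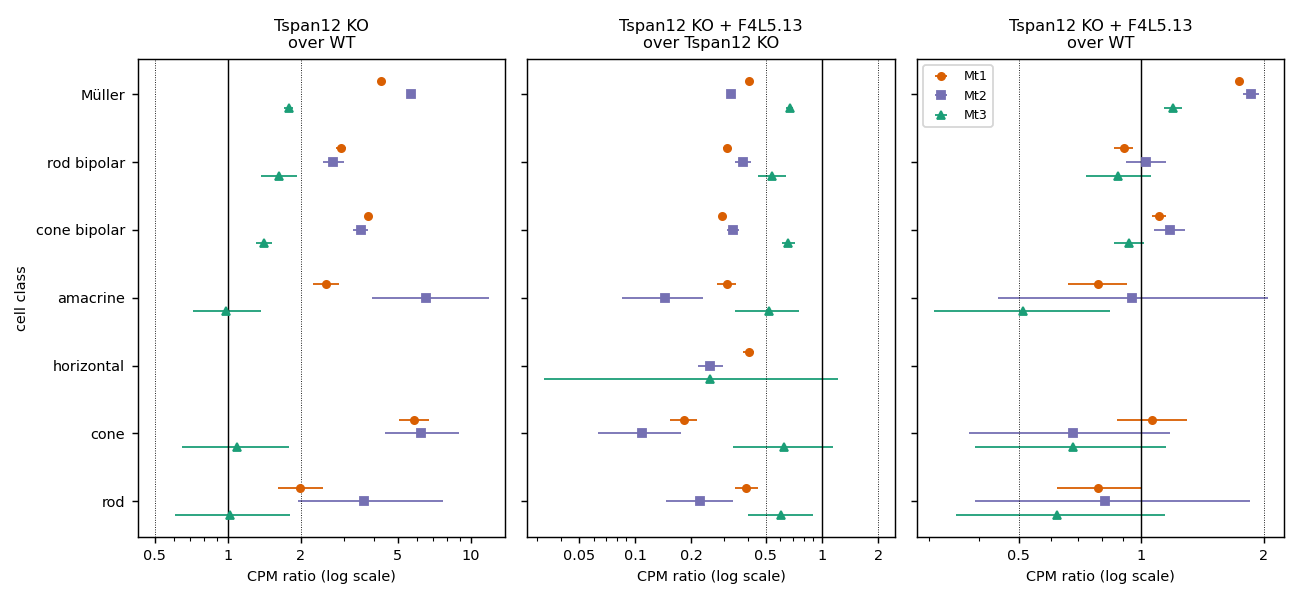
CPM ratios (log scale) of Mt1, Mt2 and Mt3 by cell class for KO over WT (left), treated KO over KO (middle) and treated KO over WT (right), with 95% counting intervals. The solid line marks 1 and dotted lines mark 2 and 0.5; horizontal cells had under 50 WT cells and appear in the middle panel only. In the right panel Mt1 of Müller glia stands at 1.74, and those of rod bipolar, cone bipolar and amacrine cells run between 0.782 and 1.10.

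Müller markers were summed in each class as a rough view of free RNA in the droplets. Such a sum also counts reads of these genes that a class makes itself. The 14 Müller markers summed to 39620 CPM in treated KO, 44440 CPM in KO and 41870 CPM in WT Müller glia. In rod bipolar cells they summed to 256, 310 and 278 CPM, and in cone bipolar cells to 377, 374 and 395 CPM. They summed to 1001, 919.5 and 2275 CPM in amacrine cells, highest in the WT library, and to 3153, 2690 and 3922 CPM in horizontal cells. Reads from a single source keep their genes in a single ratio. Mt1 reads per Glul read, the glutamine synthetase of Müller glia, were 0.477, 1.22 and 0.232 in treated KO, KO and WT Müller glia. In rod bipolar cells they were 13.2, 53.5 and 14.9, and in cone bipolar cells 5.77, 22.0 and 4.74. Amacrine cells gave 1.80, 7.36 and 1.13, and horizontal cells 3.54, 8.01 and 2.04. Rods gave 0.773, 1.78 and 0.644, and cones 0.565, 4.45 and 0.357. The ratio lay above that of Müller glia of the same library in each of these 6 classes, and rods and cones were the nearest to it. Microglia gave 0.389, 1.27 and 0.271 Mt1 reads per Glul read, close to the Müller ratios. Mt1 reads per Rlbp1 read were 1.04, 2.46 and 0.472 in Müller glia. They were 1.41, 50.2 and 0.742 in microglia and 70.4, 430 and 11.1 in horizontal cells. The Müller markers summed to 7257, 25760 and 11630 CPM in microglia, but that list includes Apoe. Mt1 reads per Apoe read were 0.0573, 0.0194 and 0.0694 in microglia, against 0.189, 0.388 and 0.106 in Müller glia. The microglial sum is thus not a measure of Müller RNA alone. How much of the Mt1 in any of these classes came from free RNA was not tested.

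The share of cells with Mt1 reads was compared after thinning each cell to 2000 reads. In rods, set beside the other classes as a measure of free RNA, it was 5.06% in the treated KO, 14.4% in the KO and 15.0% in the WT library, with median depths of 3037.5, 3116.5 and 14479 reads. Rod bipolar cells gave 71.0% in the treated KO, 95.3% in the KO and 72.9% in the WT library, at median depths of 12751, 10308 and 11248 reads. Cone bipolar cells gave 47.6%, 78.0% and 41.5%, at median depths of 13711.5, 13060 and 11652 reads. In Müller glia the shares were 91.0%, 97.2% and 88.1%, at 22656, 27049.5 and 19395 reads, and unthinned they were 96.7%, 99.5% and 99.6%. The bipolar shares lie above the rod share of the same library in all 3 libraries. Cone shares, at 6.19%, 15.7% and 5.61%, were near those of rods in the treated KO and KO libraries and below in the WT library, so shares do not set cones above rods.

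Mt1 reads came from a minority of cones. Median Mt1 per cone was 0 in all 3 libraries. In the KO library 29 cells of a cone cluster that also carried 10 of 10 rod markers held 2001 CPM of Mt1, against 175 CPM in 52 treated KO cells and 171 CPM in 135 WT cells of that cluster. The main cone cluster held 43.2 CPM in 516 treated KO cells, 170 CPM in 467 KO cells and 20.8 CPM in 685 WT cells, a KO over WT ratio of 8.17 (6.14 to 11.0). Without the 1% of cones with most Mt1 reads the KO over WT ratio of Mt1 was 3.61, against 5.82 with them.

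Within Müller glia the libraries differed in which clusters held the cells. The cluster led by Spc25, Hes5 and Aqp4 (cluster 1) held 49.4% of treated KO, 6.19% of KO and 75.1% of WT Müller glia. Cluster 7, whose leading genes included Apln, the apelin peptide, and Hsd17b2, held 6.61% of treated KO, 54.1% of KO and 1.48% of WT Müller glia. Cluster 5 was the most evenly shared, with 323 treated KO, 330 KO and 332 WT cells. Cluster 5 held 2893 CPM of Mt1 in the treated KO, 8109 CPM in the KO and 1808 CPM in the WT library, close to the levels of the whole class. Its KO over WT ratios were 4.48 for Mt1, 5.42 for Mt2 and 1.73 for Mt3. In cluster 1 the KO over WT ratio was 2.53 for Mt1 (2.43 to 2.63) and 3.11 for Mt2 (2.80 to 3.44), and in cluster 7 it was 2.01 for Mt1 (1.88 to 2.16) and 2.27 for Mt2 (1.91 to 2.73). The clusters that held most WT and most KO cells thus gave lower ratios than the whole class, at 4.28 and 5.66, which mixes clusters in unequal shares. The treated KO over KO ratio of Mt1 was 0.566 in cluster 1 (0.543 to 0.589), above 0.5.

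In cluster 7 the order of the treated KO and KO libraries depended on the clustering. Its 85 treated KO cells held 9368 CPM of Mt1 (9132 to 9609), its 735 KO cells 8636 CPM (8563 to 8709) and its 25 WT cells 4297 CPM (4007 to 4602). In these cells the treated KO library was not below the KO library. Mt2 followed, with 1617 CPM in the treated KO, 1525 CPM in the KO and 671 CPM in the WT cells. Mt3 was lower in the treated KO cells, at 382 CPM, than in the KO cells, at 521 CPM, and stood at 404 CPM in the WT cells. When the 3 genes were kept out of the clustering, the order of the treated KO and KO libraries was reversed for Mt1 and Mt2. The matching cluster then held 8365 CPM of Mt1 (8152 to 8583) in 89 treated KO and 8722 CPM (8650 to 8795) in 747 KO cells. Its 28 WT cells held 3743 CPM. Mt2 stood there at 1382 CPM (1296 to 1473) in the treated KO and 1545 CPM (1514 to 1576) in the KO cells. Cluster 7 was made from the same cells with the 3 genes not kept out, and the matching cluster from other genes of the cells. The levels of both are a description. Cluster 1 gave 2696 CPM in the treated KO, 4767 CPM in the KO and 1883 CPM in the WT cells. Cluster 17, of which 9 of 10 cone markers were also raised, gave 3085, 7233 and 1654 CPM, and the shallow cluster 24 gave 1973 CPM in the treated KO and 6891 CPM in the KO cells.

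**Figure D3:**
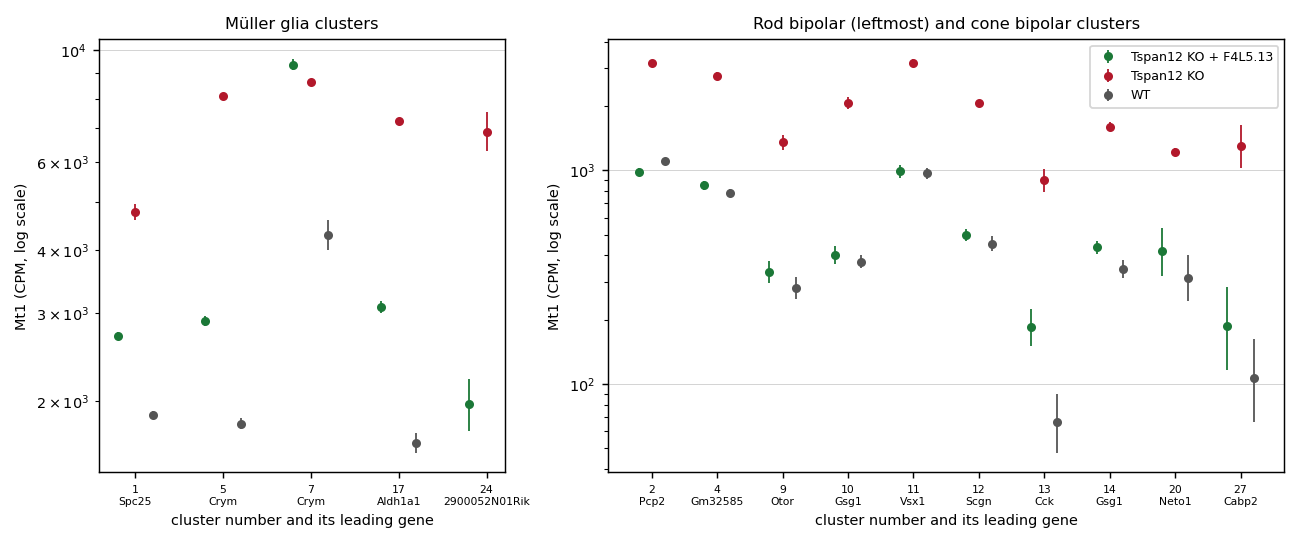
Mt1 in CPM (log scale) by cluster of Müller glia (left) and of bipolar cells (right), with treated KO left, KO in the middle and WT right in each cluster, for libraries with at least 20 cells; bars are exact Poisson 95% intervals. In Müller cluster 7 the treated KO level, 9368 CPM, stands above the KO level, 8636 CPM. That order was reversed, at 8365 and 8722 CPM, when Mt1, Mt2 and Mt3 were kept out of the clustering. In every bipolar cluster drawn the KO level is highest.

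Among bipolar cells the difference was found in each cluster that could be compared. Mt1 had a KO over WT ratio of at least 2 in 9 of 9 cone bipolar clusters, from 3.28 to 13.6, and Mt2 in 9 of 9, from 2.84 to 17.0. Levels differed between the clusters more than between libraries in places. The cluster led by Vsx1, Igfn1 and Gabrr2 (cluster 11) held 989 CPM of Mt1 in the treated KO, 3177 CPM in the KO and 968 CPM in the WT library, as much as rod bipolar cells. The cluster led by Cck, Vsx1 and Scgn (cluster 13) held 185 CPM, 899.8 CPM and 66.3 CPM in the treated KO, KO and WT libraries. It was the single cone bipolar cluster in which treated KO over WT reached 2, at 2.79 for Mt1 and 4.10 for Mt2. Mt1 was above 1 in that comparison in 9 of 9 cone bipolar clusters, with a lowest ratio of 1.02.

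Amacrine clusters spread widely. In KO cells Mt1 ran between 253 CPM in the cluster led by Tmem114 and C1ql2 (258 cells) and 2913 CPM in the cluster led by Lamp5 and Hao2 (195 cells). In the Lamp5 and Hao2 cluster it stood at 460.5 CPM in 43 treated KO cells, 2913 CPM in 195 KO cells and 408 CPM in 26 WT cells. Of the 3 amacrine clusters with at least 20 cells in both libraries, 2 reached a KO over WT ratio of 2 for Mt1, and the lowest ratio was 1.88. Other amacrine clusters of the KO library had fewer than 20 WT cells, so the class ratio of 2.53 mixes clusters in unequal shares.

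Single Müller glia differed widely in Mt1. The 10th percentile, median and 90th percentile of Mt1 per cell were 559, 1971 and 6065 CPM in treated KO cells. In KO cells the median was 5098 CPM, and in WT cells it was 1462 CPM. Above the 90th percentile of WT cells lay 23.8% of treated KO and 60.9% of KO Müller glia for Mt1, 19.2% and 55.8% for Mt2, and 14.5% and 31.8% for Mt3. The 1% of cells with most Mt1 reads gave 11.8% of the Mt1 reads of treated KO, 7.39% of KO and 8.15% of WT Müller glia. Over cells, the Spearman correlation of Mt1 with Mt2 was 0.57 in 1285 treated KO, 0.81 in 1358 KO and 0.56 in 1688 WT Müller glia, and with Mt3 it was 0.28, 0.22 and 0.21. These cells share a library, and the correlation of Mt1 with reads per cell was 0.17, 0.12 and -0.037.

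**Figure D4:**
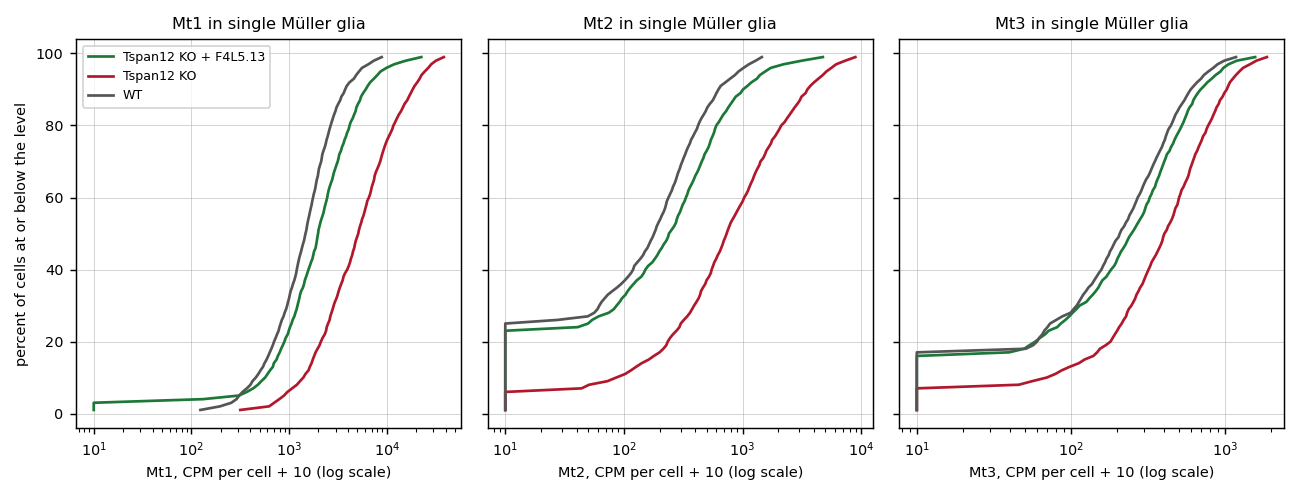
Percent of Müller glia at or below a given level (CPM per cell + 10, log scale) of Mt1, Mt2 and Mt3 in the treated KO (green), KO (red) and WT (grey) libraries, drawn from the 1st to the 99th percentile. For Mt1 the KO curve lies right of both others over its whole length, with a median of 5098 CPM against 1971 CPM in treated KO and 1462 CPM in WT cells.

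Mt3 had a class pattern of its own. It was highest in astrocytes, at 728 CPM in the treated KO, 1324 CPM in the KO and 406 CPM in the WT library. Retinal ganglion cells, the output neurons, held 670 CPM of Mt3 in 30 KO cells, against 262 CPM of Mt1, so Mt3 exceeded Mt1 there. The 5 treated KO and 2 WT ganglion cells are too few for a level. Horizontal cells held little, at 1.30, 5.12 and 22.2 CPM in the treated KO, KO and WT libraries, from 8, 22 and 49 reads. In the same cells Mt1 stood at 811, 2002 and 857 CPM. Among cone bipolar clusters Mt3 peaked in the cluster led by Gm32585 and Cabp5 (cluster 4), at 210 CPM in the treated KO, 413 CPM in the KO and 241 CPM in the WT library. It was lowest in cluster 27, led by Cabp2, at 28.1, 27.6 and 22.2 CPM, and in cluster 13, at 22.7, 31.4 and 24.7 CPM. These are counts of 3′ tags from transcripts of like length (549, 511 and 536 bases for the first Mt1, Mt2 and Mt3 transcripts), and capture may still differ between genes.

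KO over WT ratios of Mt3 stayed below 2 in 6 of 6 classes with at least 50 cells in both libraries. They were 1.62 in rod bipolar cells (1.37 to 1.93), 1.41 in cone bipolar cells (1.30 to 1.52), 0.983 in amacrine cells (0.721 to 1.37), 1.09 in cones (0.650 to 1.79) and 1.03 in rods (0.609 to 1.81). In amacrine cells, cones and rods the interval includes 1. Astrocytes, with 29 KO and 52 WT cells, are outside those 6 classes and held 1324 CPM of Mt3 in the KO against 406 CPM in the WT library. Within clusters with at least 20 cells in both libraries, Mt3 reached 2 in 2 of 9 cone bipolar, 1 of 3 amacrine, 1 of 2 cone and 1 of 2 rod clusters. It did so in 0 of 4 Müller glia clusters and 0 of 1 rod bipolar cluster. In treated KO over KO cells Mt3 was 0.541 in rod bipolar cells (0.454 to 0.644) and 0.662 in cone bipolar cells (0.609 to 0.720). As Mt1 differed more than Mt3 in Müller glia, Mt1 reads per Mt3 read there were 10.3 in the treated KO, 17.0 in the KO and 7.07 in the WT library. Mt1 reads per Mt2 read were 6.66, 5.38 and 7.11.

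The genes whose class and library levels were most like those of the 3 were found by Pearson correlation of log2(CPM + 1) over 29 sums of a class in a library, among 8717 genes. The sums share libraries, depth and class makeup, so the correlations are a description. Mt1 was most like Mt2 (r = 0.917), ahead of Gstm5, a glutathione S-transferase (0.864), Cntn1, a neural adhesion molecule (0.836), Cryz, a quinone oxidoreductase (0.821), the Wnt receptor Fzd3 (0.803) and Spire1, an actin nucleator (0.798). Mt2 was most like Mt1 and then Hipk2, a nuclear kinase (0.886), Cntn1 (0.860), Gstm5 (0.856), Nectin3 (0.827) and Plod2, a collagen lysyl hydroxylase (0.826). Mt3 correlated with Mt1 at 0.670 and with Mt2 at 0.681. Its nearest genes were Slc35f1 (0.927), Tlcd4 (0.924), the kinase Pak3 (0.885), the non-muscle myosin Myh14 (0.863) and the GABA transporter Slc6a11 (0.849).

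Most other genes of metal handling in Müller glia differed less between KO and WT libraries than Mt1 and Mt2. Of 14 zinc importers (ZIP family), 10 were measured, 1 was at or above 2, 1 at or below 0.5, and the median log2 ratio was 0.29, beside -0.01 over all measured genes, of which 3.21% were at or above 2 and 2.85% at or below 0.5. Slc39a14 (ZIP14), which takes up zinc and iron, stood at 7.66 CPM in treated KO, 9.93 CPM in KO and 4.34 CPM in WT Müller glia, and its KO over WT ratio was 2.29 (1.65 to 3.21). Slc39a8 (ZIP8) went the other way, at 7.88 CPM in treated KO, 1.10 CPM in KO and 4.73 CPM in WT Müller glia, with a KO over WT ratio of 0.233 (0.120 to 0.423) and a treated KO over KO ratio of 7.14 (4.00 to 13.7). In treated KO over KO it was the single zinc importer at or above 2, against 1.94% of measured genes, and in treated KO over WT none was at or above 2 or at or below 0.5, against 1.14% and 0.771% of measured genes. Of 10 zinc exporters (ZnT family) 7 were measured and none reached a ratio of 2 in either direction in any of the comparisons. Slc30a1 (ZnT1), which like Mt1 is a target of MTF1, stood at 9.80 CPM in treated KO, 12.4 CPM in KO and 11.8 CPM in WT Müller glia, with a KO over WT ratio of 1.05 (0.835 to 1.33). Mtf1 itself stood at 18.2, 17.7 and 15.5 CPM, with a KO over WT ratio of 1.14 (0.936 to 1.39). Of 9 copper handling genes 8 were measured, and none reached a ratio of 2 in either direction in any of the comparisons. Of all measured genes only 0.771% to 3.21% did so in a given comparison and direction. Nothing is therefore read from the counts of zinc exporters and copper handling genes.

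Among 11 NRF2 antioxidant genes, all measured, 2 were at or above 2 in KO over WT Müller glia, none was at or below 0.5, and the median log2 ratio was 0.26. Over all measured genes 3.21% were at or above 2, 2.85% were at or below 0.5, and the median was -0.013. Hmox1, which degrades haem, stood at 8.22 CPM in treated KO, 36.9 CPM in KO and 2.82 CPM in WT Müller glia. Its ratios were 13.1 for KO over WT (9.26 to 19.0), 0.223 for treated KO over KO (0.173 to 0.284) and 2.91 for treated KO over WT (1.93 to 4.48). Srxn1, the sulfiredoxin that reactivates peroxiredoxins, stood at 21.3, 40.8 and 10.8 CPM, with a KO over WT ratio of 3.79 (3.13 to 4.62). Slc7a11, the cystine importer, was at 25.0 CPM in treated KO, 12.4 CPM in KO and 17.7 CPM in WT Müller glia, and its treated KO over KO ratio was 2.02 (1.64 to 2.49). In that comparison 1 of the 11 genes was at or above 2 and 1 at or below 0.5, against 1.94% and 2.34% of measured genes. Both Hmox1 and Srxn1 followed the order of Mt1, and Slc7a11 did not. Of the rest of the list, Nqo1, Gclc, Txnrd1 and Gsr had that order at smaller KO over WT ratios. Nfe2l2, Gclm, Prdx1 and Txn1 did not have it. Of 13 glucocorticoid-responsive genes, all measured, 1 was at or above 2 in KO over WT, none was at or below 0.5, and the median log2 ratio was 0.16. Beside the 3.21% of all measured genes at or above 2, nothing is read from that count. That gene was Sgk1, a serum- and glucocorticoid-induced kinase, at 17.6 CPM in treated KO, 27.8 CPM in KO and 12.4 CPM in WT Müller glia (ratio 2.23, 1.84 to 2.72).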

How the data were processed

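Single-cell 3′ libraries were made on the 10x Chromium v3 platform, per the labels' protocols. The submitters' processing notes name Partek 9.0 and the mm10 build. The deposited tables hold estimated counts per gene and barcode. That reading comes from the values, of which 2.33% to 2.39% are not whole. The sources used here do not say whether reads were collapsed to molecules. Estimated counts were rounded to whole numbers, and of the member values at most 2.91% were not whole. In genes found in at most 5% of barcodes, 42.8% (treated KO), 48.0% (KO) and 49.1% (WT) of values up to 10 were 1. On that ground values were taken as reads, a choice that was not tested. Reads were divided by 3.37 (treated KO), 3.07 (KO) and 3.10 (WT) to give molecule equivalents, used in intervals and minimums. Each divisor is the sum of squares over the sum of values up to 10 in genes found in at most 5% of barcodes.

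Barcodes with under 500 genes or over 20% mitochondrial reads were left out. The barcodes with the most simulated doublets among their neighbours were also left out, up to 0.8% per 1000 barcodes (7.87%, 8.62% and 4.87% of treated KO, KO and WT). The libraries were clustered jointly (scanpy 1.11.5, leidenalg 0.10.2, 2000 variable genes, 40 components, 15 neighbours, resolution 1.0) without batch correction. A cluster took a class name with at least 3 markers that were 2-fold above other clusters and found in 20% of cells. Leading genes were compared with clusters of other classes, a detail settled after the clusters were seen. Members, lists and markers were chosen with earlier results of these data known. Named genes were the members, Mtf1, Slc30a1, and list genes with a ratio of 2 or more either way whose interval lay beyond 1.5.

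Reads were summed per class and library and scaled to CPM. Intervals are exact Poisson for CPM, conditional binomial for ratios and Clopper-Pearson for shares (scipy 1.17.1). Only the ratio intervals were run on simulated data, drawn as Poisson counts with the same divisors. That run cannot check the divisors or the spread between cells. With 1 library per group no test was run. Rounding, doublets, clustering, naming, weighting, extreme cells, scaling and background were varied.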

Additional observations from a re-analysis of the deposited data

How the results depend on the processing

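Each of the 9 Müller glia ratios was recomputed under 11 alternatives, 99 values in all. All 99 stayed on the same side of 1, 65 lay within the counting interval of the reported ratio, and 1 crossed 2. That 1 was Mt2 in treated KO over WT, 2.01 when classes were taken per barcode from detected markers, which also gave 1.84 for Mt1; the other values outside their intervals there were 0.434 (Mt1), 0.360 (Mt2) and 0.617 (Mt3) for treated KO over KO and 1.97 for Mt3 in KO over WT. With no doublets left out, KO over WT was 4.19 (Mt1) and 5.43 (Mt2), treated KO over KO 0.383 and 0.312, and treated KO over WT 1.61 and 1.69. With the mean of per-cell CPM, KO over WT was 4.10 (Mt1), 5.36 (Mt2) and 1.88 (Mt3), treated KO over KO 0.392 (Mt1) and 0.635 (Mt3), and treated KO over WT 1.61 (Mt1) and 1.74 (Mt2). Subtracting the rod CPM of the same library gave 4.39 for KO over WT and 1.79 for treated KO over WT (Mt1). Without the 1% of cells with most reads of the gene, treated KO over KO was 0.387 (Mt1) and 0.309 (Mt2), and treated KO over WT was 1.67 (Mt1). After the data were seen, 3 alternatives were added. Cluster 5 alone gave KO over WT of 4.48 (Mt1) and 5.42 (Mt2), treated KO over KO of 0.357, 0.289 and 0.642 (Mt1, Mt2, Mt3), and treated KO over WT of 1.60, 1.57 and 1.11. Without clusters 17 and 24 Mt3 was 1.86 in KO over WT and 0.639 in treated KO over KO. Leaving out shared barcodes, rounding, scaling by the median gene or keeping the members out of the clustering moved no ratio past its interval. In other classes, 335 of 351 values stayed on the same side of 1; the other values were those of Mt2 or Mt3 in amacrine cells, cones and rods. The causes of these shifts were not tested. Counting intervals are wide where a level is low or a library holds few cells of the class. No paired analysis was possible because each group has a single library, numbered 1.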
